A study of Mus musculus with 12 samples.

Results

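Peaks of N6-methyladenosine (m6A) that lay in the 3' untranslated region (3' UTR) of mRNAs were examined in the lungs of asthmatic and control mice. They were taken from the deposited peak lists as all peaks whose assigned transcript was protein-coding and whose annotation was 3' UTR. These were 5917 of 27292 peaks in the OVA list and 5701 of 26102 peaks in the PBS list, or 11618 of 53394 peaks in all. The mice were female BALB/c, 6 to 8 weeks old. OVA mice received ovalbumin with alum on days 0 and 7 and inhaled a 3% ovalbumin aerosol for 30 min on days 14 to 20, whereas control mice were given PBS. Lungs were collected on day 21, and 3 lungs of each group were sequenced, each as an immunoprecipitated (IP) library pulled down with an m6A antibody and as an input library of the same fragmented RNA. The RNA had been depleted of ribosomal RNA. The peaks of a group come in 1 deposited list without values of single mice, so the differences between the lists given here have no replicate check, and the lists give no read counts, so the depth behind a peak is unknown.

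m6A is the most abundant internal modification of mRNA. A nuclear complex built around METTL3 and METTL14, with WTAP and RBM15 among its partners, writes it at adenosines within a short sequence context in which GGAC is common. FTO and ALKBH5 remove it, and proteins with a YTH domain read it and direct the transcript to decay, translation or export. Sites are known to gather around the stop codon and along the 3' UTR, the stretch that also holds binding sites of microRNAs and of AU-rich element proteins. In the lung, many cytokine, chemokine and early response mRNAs are controlled through this region.

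The 3' UTR was the region with most mRNA peaks, in similar proportion in both groups. Of 11419 OVA mRNA peaks, 51.8% were in the 3' UTR (95% Wilson interval 50.9 to 52.7), 27.8% in other exons and 20.4% in the 5' UTR. In the PBS list, the 3' UTR share was 51.4% (interval 50.5 to 52.3) of 11088 mRNA peaks, beside 28.8% in other exons and 19.8% in the 5' UTR. Among peaks whose called and assigned genes were the same, the 3' UTR share was lower, 44.4% in OVA and 44.1% in PBS lungs. All intervals of this kind cover counting error only. The share varied between chromosomes, from 42% on chromosome X to 57.2% on chromosome 8 in OVA lungs, and from 40.7% to 58.9% on the same chromosomes in PBS lungs. None of the 6 OVA and 11 PBS mRNA peaks of the mitochondrial genome was a 3' UTR peak.

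Peaks in the 3' UTR were also stronger than peaks in the other regions by their medians. Strength is given as fold enrichment, the ratio of IP over input within a peak as the authors' caller wrote it, and lists were normalised separately. OVA 3' UTR peaks had a median fold enrichment of 6.67 (quartiles 3.26 and 13.6), against 5.39 in other exons and 5.48 in the 5' UTR. PBS 3' UTR peaks had one of 6.42 (quartiles 3.13 and 12.7), against 5.1 and 5.58. A fold enrichment of at least 10 was reached by 36.8% of OVA 3' UTR peaks (interval 35.6 to 38), by 26.9% of exon peaks and by 27.7% of 5' UTR peaks. The PBS shares were 34.6% (interval 33.3 to 35.8), 24.9% and 26.8%. At least 50-fold enrichment was seen in 53 of 5917 OVA and 34 of 5701 PBS peaks of the 3' UTR, beside 13 of 3174 and 10 of 3193 exon peaks and 21 of 2328 and 11 of 2194 peaks of the 5' UTR. The single highest value was in the 5' UTR, at 275 in OVA and 227 in PBS lungs against 196 and 186 in the 3' UTR. The regions also differed in the log10 p value, whose median was -44.3 for OVA 3' UTR peaks, -14.1 for exon peaks and -14 for 5' UTR peaks. In PBS lungs the medians were -39.2, -12.7 and -13. Nearly all 3' UTR peaks, 98.8% in OVA and 98.7% in PBS, had an FDR under 0.05.

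The 3' UTR peaks were broad and mostly unspliced. Each peak has a single annotation, so a wide one may also reach into other exons, and this was not examined. The exonic width of 3' UTR peaks, the summed length of the exonic blocks, had a median of 408 bp in OVA lungs with quartiles of 211 and 720 bp. Exon peaks had a median of 300 bp and 5' UTR peaks one of 242 bp. In PBS lungs the medians were 391, 298 and 242 bp. Peaks of more than 1 block, which cross a splice junction, made up 19% of OVA 3' UTR peaks, 22.7% of exon peaks and 35.7% of 5' UTR peaks, and 16.5%, 18.6% and 34.4% in PBS lungs. The widest 3' UTR peak in both lists was on Igsf10, an immunoglobulin superfamily gene on chromosome 3. It ran from 59317991 to 59328722 in OVA lungs, with 4226 bp in 3 blocks and a fold enrichment of 32.9, and from 59317662 to 59328752 in PBS lungs, with 4585 bp in 3 blocks and a fold enrichment of 29.3. From start to end, introns included, these peaks spanned 10732 and 11091 bp.

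The peaks lay close to the 3' ends of genes. Since they were chosen by their 3' UTR annotation, this and the contrast with other regions follow largely from the choice. Distances were measured from the 3' edge of a peak to the end of the RefSeq gene on which it was called, for the 4396 OVA and 4249 PBS peaks that overlapped that gene and whose gene had a listed strand. The median distance was 993 bp in OVA lungs, with quartiles of 237 and 2395 bp, and 1018 bp in PBS lungs, with quartiles of 251 and 2425 bp. Exon peaks lay at a median of 8409 and 8792 bp and 5' UTR peaks at 20004 and 21293 bp. Within 1 kb of the gene end, or past it, were 50% of OVA 3' UTR peaks (interval 48.6 to 51.5) and 49.5% of PBS ones (interval 48 to 51), but 9.46% and 8.83% of exon peaks. Strength changed little along this stretch. The median fold enrichment in OVA lungs was 6.7 at 0 to 250 bp from the end, 6.05 from 250 to 1000 bp, 7.27 from 1000 to 2500 bp and 6.89 farther away. In PBS lungs it was 5.97, 5.87, 6.97 and 6.67. The 230 OVA and 198 PBS peaks that reached past the RefSeq end had higher medians, 8.22 and 8.29. Because genomic distances include introns and genes differ in their 3' UTR length, they do not give the distance from the stop codon.

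The name of the gene needs care for peaks at gene ends. A peak was called on a gene, and its annotation separately assigned it to a transcript. Both named the same gene for 65.9% of OVA 3' UTR peaks (interval 64.7 to 67.1) and 66.2% of PBS ones, beside 83.2% of exon peaks in both lists and 96.5% and 96.9% of 5' UTR peaks. Of the 2016 OVA 3' UTR peaks that were assigned to another gene, 90% lay upstream of the start of the assigned transcript, and of the 1928 PBS peaks 91.4% did. The RefSeq position of the called gene held 91.3% and 92% of these peaks, whereas that of the assigned gene held 7.79% and 7%. Most of these peaks thus lay within the called gene and before the assigned one. Their median fold enrichment was 5.57 in OVA and 5.58 in PBS lungs, against 7.41 and 7.02 for peaks with matching genes. Genes are therefore named below by the gene on which the peak was called, with the assigned gene given where it differs.

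The protein-coding label of the assigned transcript also left out many peaks of the same region. In all, 13964 OVA and 13384 PBS peaks were annotated as 3' UTR and called on RefSeq protein-coding genes, and 5714 and 5512 of them were among the mRNA peaks described here. The others were assigned to transcripts of other classes, led by retained introns with 3344 OVA and 3186 PBS peaks and processed transcripts with 2316 and 2211. Transcripts subject to nonsense-mediated decay held 640 and 596, at median fold enrichments of 6.69 and 6.07. Pooled, these peaks of other classes were weaker than the mRNA peaks, with a median fold enrichment of 5.65 in OVA and 5.5 in PBS lungs, and the share overlapped by a peak of the other list was 85.8% and 90.5%, near that of the 3' UTR mRNA peaks.

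Within an mRNA, the strongest peak was usually the 3' UTR peak. Among 1333 OVA mRNAs with peaks in the 3' UTR and in another region, the highest fold enrichment was in the 3' UTR for 836, or 62.7% (interval 60.1 to 65.3), in another exon for 313 and in the 5' UTR for 184. The 3' UTR held 49.4% of the peaks of these mRNAs. Among 1324 PBS mRNAs of this kind, 841 had their strongest peak in the 3' UTR, or 63.5% (interval 60.9 to 66.1), with 49.7% of the peaks lying there. Set against the best exon peak of the same mRNA, the best 3' UTR peak was stronger in 538 of 869 OVA mRNAs and 571 of 879 PBS mRNAs, with median ratios of 1.38 and 1.48. Set against the best 5' UTR peak, it was stronger in 460 of 666 OVA and 427 of 640 PBS mRNAs, with median ratios of 1.69 and 1.56. Genes with more peaks in a region have more chances of a high maximum there, and no adjustment was made for this.

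Most mRNAs carried a single 3' UTR peak. By the assigned gene, 4023 mRNAs in OVA and 3886 in PBS lungs had at least 1, and 67% and 67.4% of them had exactly 1. Of these mRNAs, 2690 in OVA and 2562 in PBS lungs had no mRNA peak in another region. By the called gene, 4262 and 4115 genes had a 3' UTR mRNA peak, 3035 and 2947 of them a single one, and 80 in each list carried 4 or more. The most 3' UTR peaks by the called gene were found on Synpo2, which encodes an actin-binding protein of muscle Z-discs, with 7 OVA and 6 PBS peaks between 123078644 and 123112357 on chromosome 3. Their fold enrichments ran from 2.42 to 9.81 in OVA and from 1.7 to 8.89 in PBS lungs. Fancm, a DNA translocase of the Fanconi anaemia pathway, followed with 6 peaks in each list, and these spanned 3.37 to 26.2 in OVA and 2.45 to 23.9 in PBS lungs. Ankrd11, a chromatin regulator, had 5 OVA and 6 PBS peaks, and Ccdc141 and Dido1 had 5 in each list. All of these peaks were overlapped by a peak of the other list. Peaks spread over a long stretch, as on Synpo2, need not belong to a single 3' UTR, and this was not examined.

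By the assigned gene and over both lists together, the first place went to Pcdhac2 on chromosome 18, a member of the clustered protocadherins, which are adhesion molecules made from alternative first exons joined to shared ones. It had 14 OVA peaks but 2 PBS peaks. The peaks had been called on 13 different genes. All 14 OVA peaks overlapped a PBS peak of some kind. Synpo2 came next, and Coro6, which encodes a coronin, and Pakap, an A-kinase anchoring gene, followed together with Fancm at 6 peaks in each list. The peaks of Coro6 and of Pakap were called on 2 genes each. In the PBS list alone, Gdf1, named after its values were seen, had the most, with 7 peaks called on 2 genes, against 4 in OVA lungs.

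The strongest 3' UTR peak in OVA lungs was on Tnfsf11, which encodes the cytokine RANKL. It lay at 78278368 to 78278965 on chromosome 14 with a fold enrichment of 196, and the PBS peak inside it, at 78278487 to 78278875, had 20.2. Aldh1b1, a mitochondrial aldehyde dehydrogenase, followed at 182 in OVA and 16.3 in PBS lungs, with a log10 p value of -61.5 and -20.1. Fbxl19, an F-box gene whose peak was assigned to its neighbour Orai3, reached 165 and 73.5. Fzd8, a Wnt receptor, reached 119 and 27.6, and P2ry12, the ADP receptor of platelets and microglia, 93.4 and 8.64. These peaks were picked for their height in 1 list, so lower values in the other list follow in part from the choice. The PBS peaks of Fbxl19 and Fzd8 had the lower p values, with log10 values of -124 against -105 and -617 against -336.

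In PBS lungs the strongest 3' UTR peak was on the zinc finger gene Zfp759, at 67140827 to 67141308 on chromosome 13, with a fold enrichment of 186 against 25.1 in OVA lungs. Sema4c, a semaphorin whose peak was assigned to Ankrd39, had 121 in PBS and 37.6 in OVA lungs. Its peak had the same start and end in both lists, 36548638 to 36550339 on chromosome 1, and its log10 p value was lower in OVA lungs, -1110 against -840. Fgf18, a growth factor of lung development, had 108 and 66.6, Mterf1b, of the family of mitochondrial transcription termination factors, 104 and 13.9, and the synaptic adhesion gene Lrfn1 92.8 and 37, also with a lower log10 p value in OVA lungs, -66.4 against -46.8. A very high fold enrichment can come from an input near 0 as well as from much IP signal, and these were not separated since the lists give no counts.

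Most 3' UTR peaks of asthmatic and control lungs overlapped a peak of the other group. An overlap was counted when the exonic blocks of a peak shared at least 1 bp with any peak of the other list. In OVA lungs 846 of 5917 3' UTR peaks (14.3%, interval 13.4 to 15.2) had no overlapping PBS peak, against 19.4% of all OVA peaks. In PBS lungs 581 of 5701 (10.2%, interval 9.43 to 11) had no overlapping OVA peak, against 14.5% of all PBS peaks. The 3' UTR peaks were thus overlapped in 85.7% and 89.8% of cases, exon peaks in 78.5% and 81.9%, and 5' UTR peaks in 75.6% and 79.9%. The share depended on the overlap asked for. It was 75.1% and 77.7% for 3' UTR peaks when 50% of both peaks had to be covered, and 11.8% and 12.2% with identical ends. Where a 3' UTR mRNA peak was overlapped, the other peak was nearly always of the same kind, in 4953 of 5071 OVA and 5015 of 5120 PBS cases. In 83 OVA and 53 PBS cases it was an mRNA peak of another region, and in 31 and 52 a 3' UTR peak of another transcript class.

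Overlap was lowest for weak and for narrow peaks. In OVA lungs, 70.1% of 3' UTR peaks under a fold enrichment of 4 were overlapped, 91.8% from 4 to 8, 92.4% from 8 to 16 and 96.7% from 16 upwards. The PBS shares were 80.7%, 93.9%, 93.3% and 97.1%. By exonic width, the shares were 52.1% under 200 bp, 91.4% from 200 to 500 bp and 99.1% from 500 bp. By width, PBS peaks gave 64.8%, 94.5% and 99.8%. In the same width classes, exon peaks had 51.2%, 86.5% and 98.4% in OVA lungs, and 5' UTR peaks 51.5%, 85.7% and 99.1%. In PBS lungs, the shares under 200 bp were lower in the other regions, 58.7% for exon peaks (interval 55.7 to 61.6) and 56.4% for 5' UTR peaks (interval 53 to 59.7), against 64.8% in the 3' UTR (interval 62.2 to 67.3). The 3' UTR had fewer narrow peaks, with 22.5% of OVA peaks under 200 bp, compared with 31.8% of exon and 38.9% of 5' UTR peaks.

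The peaks found in a single list were narrow and weak. Their median exonic width was 150 bp in OVA and 122 bp in PBS lungs, against 479 and 448 bp for overlapped 3' UTR peaks. Their median fold enrichment was 2.63 and 2.92, against 7.64 and 6.96. For 541 of the 846 OVA peaks (63.9%), the PBS list had another peak on the same called gene, and for 432 of them such a peak in the 3' UTR. For 394 of the 581 PBS peaks (67.8%), the OVA list had another peak on the gene. By the assigned gene, 3570 mRNAs had a 3' UTR peak in both lists. Of the 4023 OVA and 3886 PBS mRNAs with such a peak, 453 and 316 had it in that list alone. For peaks of all regions, the paper likewise reports most m6A-modified mRNAs in both groups, and that share was not computed here. Of the 453, 193 had a PBS peak of some kind and 260 had none, and of the 316, 139 had an OVA peak and 177 had none. A peak can be called only where the RNA is present. The amounts of these mRNAs in the input libraries were not analysed here, so more methylation and more transcript were not separated.

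Among the 3' UTR peaks without an overlapping PBS peak, the lowest p value was that of Ocstamp, whose product takes part in the fusion of osteoclast precursors. Its peak covered 2039 bp, at 165394149 to 165396187 on chromosome 2, with a fold enrichment of 21.4 and a log10 p value of -797. The homeobox gene Msx3 had a fold enrichment of 55.8 and Chst13, a chondroitin sulfotransferase, one of 59.3, with log10 p values of -238 and -129. The paper lists Msx3 among mRNAs with both higher methylation and higher expression in asthma. Aunip, which encodes a partner of Aurora kinase A, had 33.3 and -120. The peak on H2afz, the gene of the histone variant H2A.Z, was of another kind, with a fold enrichment of only 2.52 at a log10 p value of -149. It was 268 bp long and had been assigned to Dnajb14.

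Among PBS peaks without an OVA overlap, Akap5, a scaffold of protein kinase A, had the lowest p value, a log10 of -143, but a fold enrichment of 1.9. The carboxylesterase Ces1g, with a peak in 3 blocks assigned to Ces1f, had 6.98 and -136. The ubiquitin-conjugating enzyme variant Ube2v2 had 15.6 and -119. Ear1, an eosinophil-associated ribonuclease, had 7.65 and -49.9 (chromosome 14, 43818764 to 43819261). Sema3g, a secreted semaphorin, had 1.92 and -41.8. Low fold enrichments with very low p values, as on Akap5, Sema3g and H2afz, in this order, stood low in strength, at percentiles of 7.28, 7.65 and 16.2 within the 3' UTR peaks of their list.

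Fold enrichments of matched peaks were alike in both groups. Peaks were paired when they covered at least 50% of each other's exonic blocks and were best partners both ways, which gave 4240 pairs of 3' UTR mRNA peaks. Across these pairs the fold enrichments had a Spearman correlation of 0.87, as a description, since peaks of the same libraries are not independent. The median ratio of OVA over PBS was 1.1, with quartiles of 0.888 and 1.36, and the median over all 18088 paired peaks was 1.09. A ratio of at least 2 in favour of OVA was seen in 263 pairs, or 6.2% (interval 5.52 to 6.97), against 6.45% of all pairs. In favour of PBS there were 158, or 3.73% (interval 3.2 to 4.34), against 4.17% of all pairs. Both shares were close to those of all peaks. In the exon pairs, 8.15% and 4.76% differed in these directions, and in the 5' UTR pairs 7.54% and 6.85%. Large ratios were more common among strong peaks. A pair needs a called peak in both lists, and the lowest fold enrichment of a 3' UTR peak was 1.14 in OVA and 1.15 in PBS lungs. This limits the ratios that weak pairs can reach. With a geometric mean of both fold enrichments under 4, 35 of 1080 3' UTR pairs differed by at least 2-fold, and from 16 upwards 134 of 843, or 15.9%.

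The pairs with the largest ratios had both high and low p values. In favour of OVA, the ratio was 10.8 for P2ry12 and 9.7 for Tnfsf11, both described above. Plpp7 had 28.8 in OVA and 3.45 in PBS lungs, with log10 p values of -8.77 and -3.04. Ly9, a SLAM family receptor of lymphocytes, had 18.4 and 2.53 at 171588623 to 171589071 on chromosome 1, with log10 p values of -173 and -8.8. Epor, the erythropoietin receptor, had 20 and 2.8, with -6.12 and -3.98. In favour of PBS, Zfp850 had 18.3 in PBS and 2.16 in OVA lungs, a ratio of 8.47 on log10 p values of -5.32 and -2.42. Zcchc14 had 25.2 and 3.12, with -25.1 and -13.4, and Zfp759 had 186 and 25.1. Tmem47, a membrane protein of cell junctions, had 25.7 and 3.71, with -10.8 and -6.62, and Plch1, a phospholipase C, had 50.8 and 7.79. Zfp759 and Plch1 had low p values in both lists, with log10 values of -103 and -16.4 in PBS and -89.6 and -20.8 in OVA lungs.

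Pairs in other regions were also examined on mRNAs whose 3' UTR pair differed at least 2-fold. The 3' UTR pairs were chosen for their ratio, so smaller differences in the other regions follow in part from the choice. Most such pairs over all genes also differed by less than 2-fold. On genes with a 3' UTR pair at least 2-fold higher in OVA, 82 pairs of exon or 5' UTR mRNA peaks were found on 61 genes. Their median ratio of OVA over PBS was 1.17, and 55 of them (67.1%, interval 56.3 to 76.3) were above 1. On genes with a 3' UTR pair at least 2-fold higher in PBS, 52 such pairs on 40 genes had a median ratio of 1.15, with 33 (63.5%, interval 49.9 to 75.2) above 1. Of the 82 pairs, 8 were at least 2-fold higher in OVA and 3 in PBS. Of the 52 pairs, 5 were at least 2-fold higher in PBS and as many, 5, in OVA. The 1175 pairs over all genes held 70 at least 2-fold higher in OVA and 40 in PBS. Over all genes with a 3' UTR pair, these 1175 pairs had a median of 1.1, with 61.8% above 1.

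Some transcripts of the m6A machinery carried the mark in their own 3' UTRs. For this and the following groups of genes, the base is the 12011 RefSeq protein-coding genes with a peak of any kind in either list, of which 34.1% had a 3' UTR mRNA peak in OVA and 33% in PBS lungs. A 3' UTR peak of some transcript class was found on 9634 of these genes in OVA and 9281 in PBS lungs. Of 9 writer genes, 8 had a peak of any kind, and 3 had a 3' UTR mRNA peak in OVA and 2 in PBS lungs, while 8 and 7 had a 3' UTR peak when all transcript classes were counted. Rbm15b, a subunit that guides the complex to RNA, had 2 peaks in each list with a highest fold enrichment of 23.8 in OVA and 50.6 in PBS lungs. Wtap, the adaptor of the catalytic pair, had 2 peaks in each list, the strongest assigned to Acat2, with 13.6 and 19.2. Mettl14 had a weak one in OVA lungs alone, with 2.34 and a log10 p value of -3.17. Mettl3, the catalytic subunit, had no peak of any kind in either list. Of 13 eraser and reader genes, 10 had a peak of any kind, and 3 had a 3' UTR mRNA peak, the same ones in both groups. The cytoplasmic readers Ythdf2 and Ythdf3 had strong ones, 17.4 in OVA and 25.8 in PBS lungs for Ythdf2 and 21.3 and 18.9 for Ythdf3. The eraser Alkbh5 had 2 weaker peaks in each list, and the highest values, 3.69 in OVA and 3.13 in PBS lungs, belonged to different peaks.

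Of 34 factors that act on the 3' end of mRNAs, 32 had a peak of any kind, and 11 had a 3' UTR mRNA peak in each list, the same 11, and all of their 18 OVA and 18 PBS peaks were overlapped by a peak of the other list, beside 85.7% and 89.8% of all 3' UTR mRNA peaks. The median fold enrichment of these peaks was 3.46 and 3.24, below the 6.67 and 6.42 of all 3' UTR peaks. The strongest were on Tnrc6a, a partner of Argonaute in microRNA silencing, with 21.5 in OVA and 17.8 in PBS lungs, and on Cstf1, a subunit of the cleavage stimulation factor, with 14 and 13.1. Cpsf2, a subunit of the cleavage and polyadenylation factor, had 9.59 and 8.12, and Cnot11, of the CCR4-NOT deadenylase, 6.29 and 5.43.

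Type 2 cytokines had no peaks, while several of their receptors did. Il4, Il5, Il9, Il13, Il25 and Tslp had no peak of any kind in either list. Of the 27 genes of this list, 17 had a peak of any kind, and 5 of these had a 3' UTR mRNA peak in OVA and 6 in PBS lungs. Il5ra, the eosinophil receptor subunit for interleukin 5, had 21.8 in OVA and 52.3 in PBS lungs, but its log10 p value was lower in OVA lungs, -194 against -16.9. Il9r had 42.6 and 28.6, with log10 p values of -363 and -46.4, and Il13ra1, whose peak was assigned to Zcchc12, had 20.7 and 31.6. Il1rl1, the receptor for interleukin 33, had 4 OVA peaks, of which 2 overlapped a PBS peak, and 2 PBS peaks. The strongest, assigned to Il18r1, had 12.3 and 25. Gata3, the transcription factor of type 2 lymphocytes, had a 3' UTR mRNA peak in PBS lungs alone, at 2.96 and with a log10 p value of -4.8. Over all transcript classes, however, Gata3 had 2 OVA and 3 PBS peaks of the 3' UTR, the strongest with 15.6 in OVA and 18.1 in PBS lungs. Named after its values were seen, the alarmin Il33 had nearly the same peak in both lists, from 29958903 on chromosome 19, with 3.89 in OVA and 5.9 in PBS lungs.

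The SOCS family, feedback inhibitors of cytokine signalling, had 3' UTR mRNA peaks on 3 of 8 genes, all 8 with a peak of some kind, in OVA and 2 in PBS lungs. Socs3 had 18.8 and 19.3. Socs6 had 26.6 in OVA and 21.5 in PBS lungs, and 1 of its 2 OVA peaks had no PBS overlap. Socs1 had a 3' UTR mRNA peak in OVA lungs alone (chromosome 16, 10783408 to 10783738), with 14.4 and a log10 p value of -5.12.

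Chemokine receptors and chemokines were counted apart, and the difference between them was not tested. Of 13 receptor genes, all with a peak of some kind, 12 had a 3' UTR mRNA peak in OVA and 10 in PBS lungs. Of 21 chemokine genes, 3 and 2 did, a split made after the values were seen. Over all 12011 genes with a peak, the shares were 34.1% in OVA and 33% in PBS lungs. Of the 21 chemokine genes, 12 had no peak of any kind in either list, and 7 in OVA and 4 in PBS lungs had a 3' UTR peak of some transcript class. The strongest were on Cxcr2, a neutrophil receptor, with 48.8 in OVA and 40.5 in PBS lungs, and Ccr7, which guides dendritic cells and lymphocytes to lymph nodes, with 24 and 20.5. Ccr4, found on type 2 helper cells, had 21.8 and 11.6, and Cx3cr1, the fractalkine receptor, 18.2 in both lists. Ccl24, an eosinophil chemokine, had 2 peaks of the 3' UTR in OVA lungs alone, the stronger at 135569965 to 135570437 on chromosome 5 with 5.17, and the PBS list had no peak on the gene. The eosinophil receptor Ccr3 had one in OVA lungs alone, with 13, which was overlapped by a PBS peak with another annotation. The eosinophil chemokine Ccl11, named after its values were seen, had a peak in both lists, with 4.65 in OVA at a log10 p value of -579 and 7.5 in PBS lungs at -8.16. The median over both kinds of genes was 8.99 for its 24 OVA peaks and 6.53 for its 19 PBS peaks.

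Immediate early genes, which are switched on within minutes of a stimulus and have short-lived mRNAs, had stronger 3' UTR peaks than the median. Of 24 genes, 23 had a peak of any kind, and 13 had a 3' UTR mRNA peak in each list, the same 13, and all of the 15 peaks per list overlapped a peak of the other list, near the high share of all 3' UTR mRNA peaks. Their median fold enrichment was 12.7 in OVA and 13.4 in PBS lungs, beside 6.67 and 6.42 for all 3' UTR peaks. Myc had 75.5 and 79, with the same start at 61989597 on chromosome 15. Ier5 had 31.9 in OVA and 26 in PBS lungs, Klf2, a factor of quiescent endothelium, 29.5 and 21.9, and Ier2 28.8 and 18.4.

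Toll-like receptors and NF-kB genes had 3' UTR mRNA peaks on 11 genes in OVA and 9 in PBS lungs, of 26 genes of which 23 had a peak of any kind. Tlr9, the endosomal receptor for unmethylated DNA, had unlike peaks in the lists. Its OVA peak (chromosome 9, 106225683 to 106226733) reached a fold enrichment of 41.3, while the PBS peak was confined to 106226492 to 106226703 and had 2.23 with a log10 p value of -3.59. Their unequal lengths kept them out of the pairs above. Tlr9 had 4 OVA and 5 PBS peaks of any kind, and those with another annotation were not compared. Tlr2 had 33.7 and 22.7, Tlr3, the receptor for double-stranded RNA, 12.4 and 20.7, and Tlr8 15 and 20. Tlr1, with 7.96, and the NF-kB subunit Rel, with 7.51, had a 3' UTR mRNA peak in OVA lungs alone, and both were overlapped by a PBS peak of another annotation.

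In the list of TGF-beta signalling and matrix genes, 24 of 26 had a peak of any kind, and 9 had a 3' UTR mRNA peak in OVA and 8 in PBS lungs. The receptor Bmpr1a, assigned to Sncg, had 13.3 and 15.9, the receptor Acvr1 15.4 and 13.6, the signal transducer Smad3 13.7 and 11, and the matrix glycoprotein tenascin, Tnc, 8.47 and 13.8. Timp3, an inhibitor of metalloproteinases, had a 3' UTR mRNA peak in OVA lungs alone with a fold enrichment of 1.55. Of 20 Notch pathway genes, 19 had a peak of any kind, and 18 had a 3' UTR peak of some transcript class in each group. Of all 12011 genes with a peak, 9634 in OVA and 9281 in PBS lungs had one. A 3' UTR mRNA peak was found on 3 Notch pathway genes in both groups. On each of these 3 genes, the strongest peak was assigned to another gene. The coactivator Maml2, assigned to Mtmr2, had 29.8 in OVA and 22.6 in PBS lungs, Notch2, assigned to Adam30, 22.9 and 17.7, and Maml1, assigned to Ltc4s, 8.35 and 7.03. Of 18 glucocorticoid and clock genes, 16 had a peak of any kind, and 14 in OVA and 16 in PBS lungs had a 3' UTR peak of some transcript class. A 3' UTR mRNA peak was found on 3 of them in both groups. The clock gene Per1 had 28 and 31.6, Zbtb16, assigned to Nnmt, 10.7 and 6.21, and Cry2, assigned to Mapk8ip1, 2.63 and 1.57.

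Of 18 genes of goblet cells and of alternatively activated macrophages, 13 had a peak of any kind, and 3 had a 3' UTR mRNA peak in OVA and 2 in PBS lungs. A 3' UTR peak of some transcript class was found on 10 and 6, beside 9634 and 9281 of all 12011 genes with a peak. Foxa3, a transcription factor of mucous cells, had 27.7 in OVA and 15.8 in PBS lungs, and the airway mucin Muc5b 3.33 and 2.29. The mucin Muc5ac had a 3' UTR mRNA peak in OVA lungs alone, assigned to Muc5b, with 1.88 at a log10 p value of -41.3. Of 27 genes of lung epithelium and endothelium, 8 had a 3' UTR mRNA peak in OVA and 7 in PBS lungs, and 26 had a peak of some kind in at least 1 list. The surfactant gene Sftpc was the one without any. Foxa1, a factor of airway epithelium, had 39.3 and 30.3, the endothelial junction gene Cldn5 21.8 and 10.8, Foxj1, the regulator of motile cilia, 15.2 and 17.3, and the mesenchymal factor Foxf1 10.7 and 11.5. Hopx, of alveolar type 1 cells, had one in OVA lungs alone with 2.35. Whole lung was sequenced, so a change in the number of cells and a change within cells cannot be told apart for any gene above.

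Pathways differed in how many of their marked mRNAs were marked in the 3' UTR. For this count, peaks with matching called and assigned genes were used, and mRNAs with any mRNA peak formed the total. Over all mRNAs the share with a 3' UTR peak was 54% in OVA (2820 of 5225) and 53.6% in PBS lungs (2712 of 5055). Of 17 KEGG pathways, cytokine-cytokine receptor interaction had 62 of 90 in OVA (68.9%, interval 58.7 to 77.5) and 58 of 85 in PBS lungs (68.2%, interval 57.7 to 77.2). The mRNAs of the ribosome had 9 of 10 and 11 of 13, though at low strength, with median fold enrichments of 2.96 and 2.82. Oxidative phosphorylation had a low share, with 4 of 20 (20%, interval 8.07 to 41.6) and 3 of 23 (13%, interval 4.54 to 32.1). These totals included 5 OVA and 9 PBS mRNAs of the mitochondrial genome, and without them the counts were 4 of 15 (26.7%, interval 10.9 to 52) and 3 of 14 (21.4%, interval 7.57 to 47.6). Focal adhesion had 23 of 60 (38.3%, interval 27.1 to 51) and 24 of 61 (39.3%, interval 28.1 to 51.9), and Th1 and Th2 cell differentiation 5 of 21 and 6 of 22. JAK-STAT, NF-kappa B, MAPK, Wnt and TGF-beta signalling had shares from 50% to 60.6% in OVA lungs. In each of the 17 pathways, the PBS share fell within the OVA interval, though many groups were small.

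Sequence could be read for the few 3' UTR mRNA peaks that cover a RefSeq gene start, since the RefSeq windows of 300 bases around gene starts (GRCm38.p6) were the sequence at hand. Peaks covered at least 200 bases of a window in 29 cases, some windows overlapping each other, and 12 windows were covered whole. The letters GGACT were searched, with the related contexts GGACA as well as GGACC, on both strands. Of the 12 whole windows, 12 held at least 1 of them on the strand of the called gene and 6 held 1 on the opposite strand. Of all 32817 distinct windows, 60.2% held at least 1 on the strand of their gene and 60.4% on the opposite strand. GGACT was found in 7 of the 12 and in 26.1% of all windows. These sets are unlike, since the 12 lie inside peaks, while windows around gene starts in general also hold bases before the transcript. Of the 29 parts, 21 (72.4%) held at least 1 of the motifs on the strand of the called gene, 17 (58.6%) on the opposite strand, and 12 (41.4%) held GGACT. Such a match describes the reference sequence only, not a methylated base, and the mice were of another strain than the reference. The following stretches of 29 bases come from the 5 strongest of these peaks that held GGACT and were found in both lists, with GGACT in capitals, written from 5' to 3' on the strand of the called gene.
Zgpat: ttggggtggaggGGACTgtgctggtcttt
9930111J21Rik1: caggagcaagctGGACTcccaGGACTtct
BC051019: caggcatcctctGGACTcttccttcttat
Naa80: accaacccacgaGGACTggagaccctaca
Lipt2: attgtgccttgtGGACTggttggaactgg

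The Zgpat stretch lay at chr2:181381165-181381193 on the plus strand, in a peak assigned to Lime1, the next gene, with a fold enrichment of 32.8 in OVA and 24.6 in PBS lungs. The stretch of 9930111J21Rik1 lay at chr11:48946428-48946456 on the minus strand, in a peak assigned to Psme2b, and held GGACT at 2 places, with 21.9 and 28.6. That of BC051019 was at chr7:109716254-109716282 on the minus strand, with 13.9 and 18.3. That of Naa80, an acetyltransferase of actin, was at chr9:107580487-107580515 on the plus strand, in a peak assigned to Hyal3, with 16.6 and 13.1. That of Lipt2, a lipoyl transferase, was at chr7:100160251-100160279 on the plus strand, with 16 and 9.38.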

How the data were processed

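The authors trimmed reads with FASTP, aligned them with HISAT2 to the Ensembl mouse genome, used exomePeak as peak caller and ChIPseeker for annotation. The way in which 3 replicates became 1 deposited list is not stated. The deposited fold enrichment is a ratio of IP over input, and each peak's deposited score is a log10 p value or log10 FDR, both by the authors' caller. Genomic widths and block numbers are as deposited.

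Exonic widths were summed over the deposited blocks, and distances to gene ends were computed from RefSeq positions. Shares with 95% Wilson intervals, medians, overlaps of exonic blocks (at least 1 bp) and reciprocal best pairs (50% of both peaks) were computed. No statistical test was run, since each group has a single list. A symbol was found for the called gene of 5908 OVA and 5695 PBS peaks of the 3' UTR. Coordinates count from 1 and follow the lists. Gene positions and windows come from RefSeq on GRCm38.p6.

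Named peaks are the 5 of highest fold enrichment (FDR under 0.05) and the 5 of lowest p without overlap in each list, the 5 pairs of largest ratio each way (FDR under 0.05 and matching called and assigned genes), the 5 genes with most peaks, the widest peak, and, in 13 gene lists, the 4 highest genes and most of those with a peak in 1 list. Members and lists were chosen with earlier results of these data known. Python 3.11.15, numpy 2.4.6, pandas 2.3.3 and scipy 1.17.1 were used. The overlap and pairing code was tested on simulated data. Alternatives changed the FDR, fold enrichment, overlap, pairing and gene rules. Windows on chromosome 18 were left out of the search within peaks.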

Additional observations from a re-analysis of the deposited data

Results flagged for a closer look

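A signal in the same region lay outside the mRNA peaks described above. In OVA lungs, 8250 peaks annotated as 3' UTR and called on protein-coding genes were assigned to transcripts of another class, and in PBS lungs 7872. These were 59.1% and 58.8% of all 3' UTR peaks on such genes. Jun, named after its values were seen, was among the genes with a peak of this kind, at 97.4 in OVA and 63.3 in PBS lungs, as were Zfp36l2, a decay factor of AU-rich mRNAs, at 69.3 and 64.6, and the Notch regulator Heyl at 36.5 and 18.3. The other genes and groups named above were counted by their mRNA peaks, so a gene without such a peak can still be marked in its 3' UTR.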

How the results depend on the processing

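No paired analysis was possible because each group has 1 list without values of single mice, and leaving out a replicate could not be run for the same reason. Of 60 values under alternatives, 36 stayed within their interval or, for counts, within 1.5-fold, and 24 did not. With matching called and assigned genes, the 3' UTR share moved to 44.4% in OVA and 44.1% in PBS lungs, and the median fold enrichment to 7.41 and 7.02. A fold enrichment of at least 2 moved the medians to 7.5 and 7.33 by its construction. With all transcript classes, the medians were 6.05 and 5.85 and the PBS share 52.7%. Counting 3' UTR peaks called on protein-coding genes, an alternative chosen after seeing the data, gave shares of 59.1% and 59%, medians of 6.06 and 5.85, 9634 and 9281 genes, and 59.4% for the strongest peak in PBS lungs. By the lowest p value, the strongest peak was in the 3' UTR in 67.7% and 66.9%. Overlapped peaks fell to 75.1% and 77.7% with an overlap of 50% of both peaks, to 11.8% and 12.2% with identical ends, and to 83.7% and 88% against 3' UTR mRNA peaks alone. The cause of the other shifts was not tested. The counts of pairs with a 2-fold difference stayed within 1.5-fold under every alternative tried.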
